A study of Mus musculus with 4 samples.

Results

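The 43 interferon-stimulated genes described here are antiviral, signaling and GTPase genes that interferons are known to induce. They were chosen by symbol from a list of named genes, and all 43 were found among the 40213 symbols of the count tables, with Ddx58 listed under its newer symbol Rigi. They were measured by bulk RNA sequencing of CD24+ emergency progenitors (EPs), which are CD11c+CD117+ cells that expand under Flt3 ligand and give rise to conventional dendritic cells. TopBP1 is a scaffold protein of the DNA damage response, and the question was how its deletion changes gene expression in these progenitors.

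The WT group was 2 libraries from littermates carrying TopBP1 fl/fl alleles without Cre, and the TopBP1cKO group was 2 libraries from mice carrying the same TopBP1 fl/fl alleles together with CD11c-cre. Both groups received 10 μg of Flt3L-Ig intraperitoneally on days 0 and 3, CD24+ EPs were isolated from spleens on day 9, and the mice of the study were 7 to 10 weeks old. CD11c-cre acts in cells that have switched on the CD11c promoter, so deletion can differ from cell to cell within a progenitor population. The sources do not say whether the libraries of a group came from separate mice, so the P values below measure the spread between these libraries, which may be partly technical.

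Interferons are secreted by infected or sensing cells and bind receptors on the same or neighboring cells. Type I and type III interferons act through the kinases JAK1 and TYK2 to form a complex containing STAT2 and IRF9, which binds the interferon-stimulated response element (ISRE) in target promoters, whereas interferon-γ acts mainly at gamma-activated sites (GAS). Dendritic cells are known both to produce interferons and to respond to them, and many of the induced genes are read at a lower level without infection.

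Libraries held 14561583 to 15193831 counts each, and 12393 genes passed the filter on low counts, including all 43 interferon-stimulated genes. Topbp1 had 1102 and 1143 counts in WT, 773 in TopBP1cKO replicate 1 and 1279 in TopBP1cKO replicate 2, so replicate 2 was not below WT. These counts are summed per gene and do not show whether the floxed alleles were deleted. The groups below are those of the labels. TopBP1cKO replicate 2 also stood apart in cell cycle genes, with a summed level of 2286 CPM (read counts scaled to library size) over 20 genes against 826.5 in replicate 1 and 627.2 to 682.2 in WT. The genes of the sort gate (Itgax, Kit, Cd24a and Flt3) were all present, with sums of 2714 to 2790 CPM in WT and 2401 to 2632 CPM in the libraries labelled TopBP1cKO, and the cDC1 markers Xcr1 and Clec9a were read at 470 to 753 CPM in every library.

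Most of the interferon-stimulated genes were lower in the libraries labelled TopBP1cKO, by a small margin, and a few of the least abundant were higher. The log2 fold change (TopBP1cKO over WT) was below 0 for 33 of the 43 genes and above 0 for 10, with a median of -0.29 and a range of -0.58 for Xaf1 to 0.75 for Rtp4. The median over all genes tested was 0.01, and 48.8% of all genes tested were below 0. Summed over the 43 genes, the level was 5549 and 5579 CPM in WT and 4511 and 4326 CPM in the libraries labelled TopBP1cKO. Both libraries labelled TopBP1cKO lay below both WT libraries for 24 genes (55.8%), an ordering that 20.8% of all genes tested had. The opposite ordering held for 4 genes (Oas2, Gbp7, Ifi27l2a and Rtp4; 9.3%), against 22.8% of all genes tested.

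None of the 43 genes passed a false discovery rate (FDR) of 0.05 in edgeR's quasi-likelihood test over all genes tested, in which 0.105% of all genes were called. The lowest FDR of a member was 0.307. At an unadjusted P below 0.05, 18 of the genes were lower and 3 (Oas2, Gbp7 and Rtp4) were higher, against 3.77% lower and 6.95% higher among all genes tested. With other tests on the same counts, limma-voom called 0 of the 43 genes and 0.105% of all genes. DESeq2 called Stat2 (adjusted p = 0.0218) and 1.25% of all genes. The likelihood ratio test of edgeR called Stat2 (FDR 0.0219) and Xaf1 (FDR 0.0436) and 1.89% of all genes. The unadjusted P was below 0.05 for 21, 17 and 21 of the genes in these 3 tests. The number called depended on the libraries: it was 22 without TopBP1cKO replicate 1, where 20.5% of all genes were called, 7 without TopBP1cKO replicate 2, where 1.74% of all genes were called, 0 without WT replicate 1 (0.0929% of all genes) and 0 without WT replicate 2 (0.00781% of all genes). With the replicate number as a block, Xaf1 was called (FDR 0.0447), as were 4.07% of all genes. Without TopBP1cKO replicate 2, the library whose Topbp1 goes against its label, 22 genes were lower and 0 higher at an unadjusted P below 0.05, against 5.16% and 6.08% of all genes. Without WT replicate 1, 3 genes were lower, against 1.2% of all genes, and without WT replicate 2, 4 genes were lower, against 1.17%, and none was higher in either case, against 3.95% and 3.36% of all genes. Without TopBP1cKO replicate 1, 23 genes were lower and 6 higher, against 15.9% and 16.6% of all genes. An exact permutation test on a single gene cannot give a P below 0.3333 with 2 libraries against 2. In bulk RNA, fewer cells that express a gene and less of its RNA per cell cannot be told apart.

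**Figure D1:**
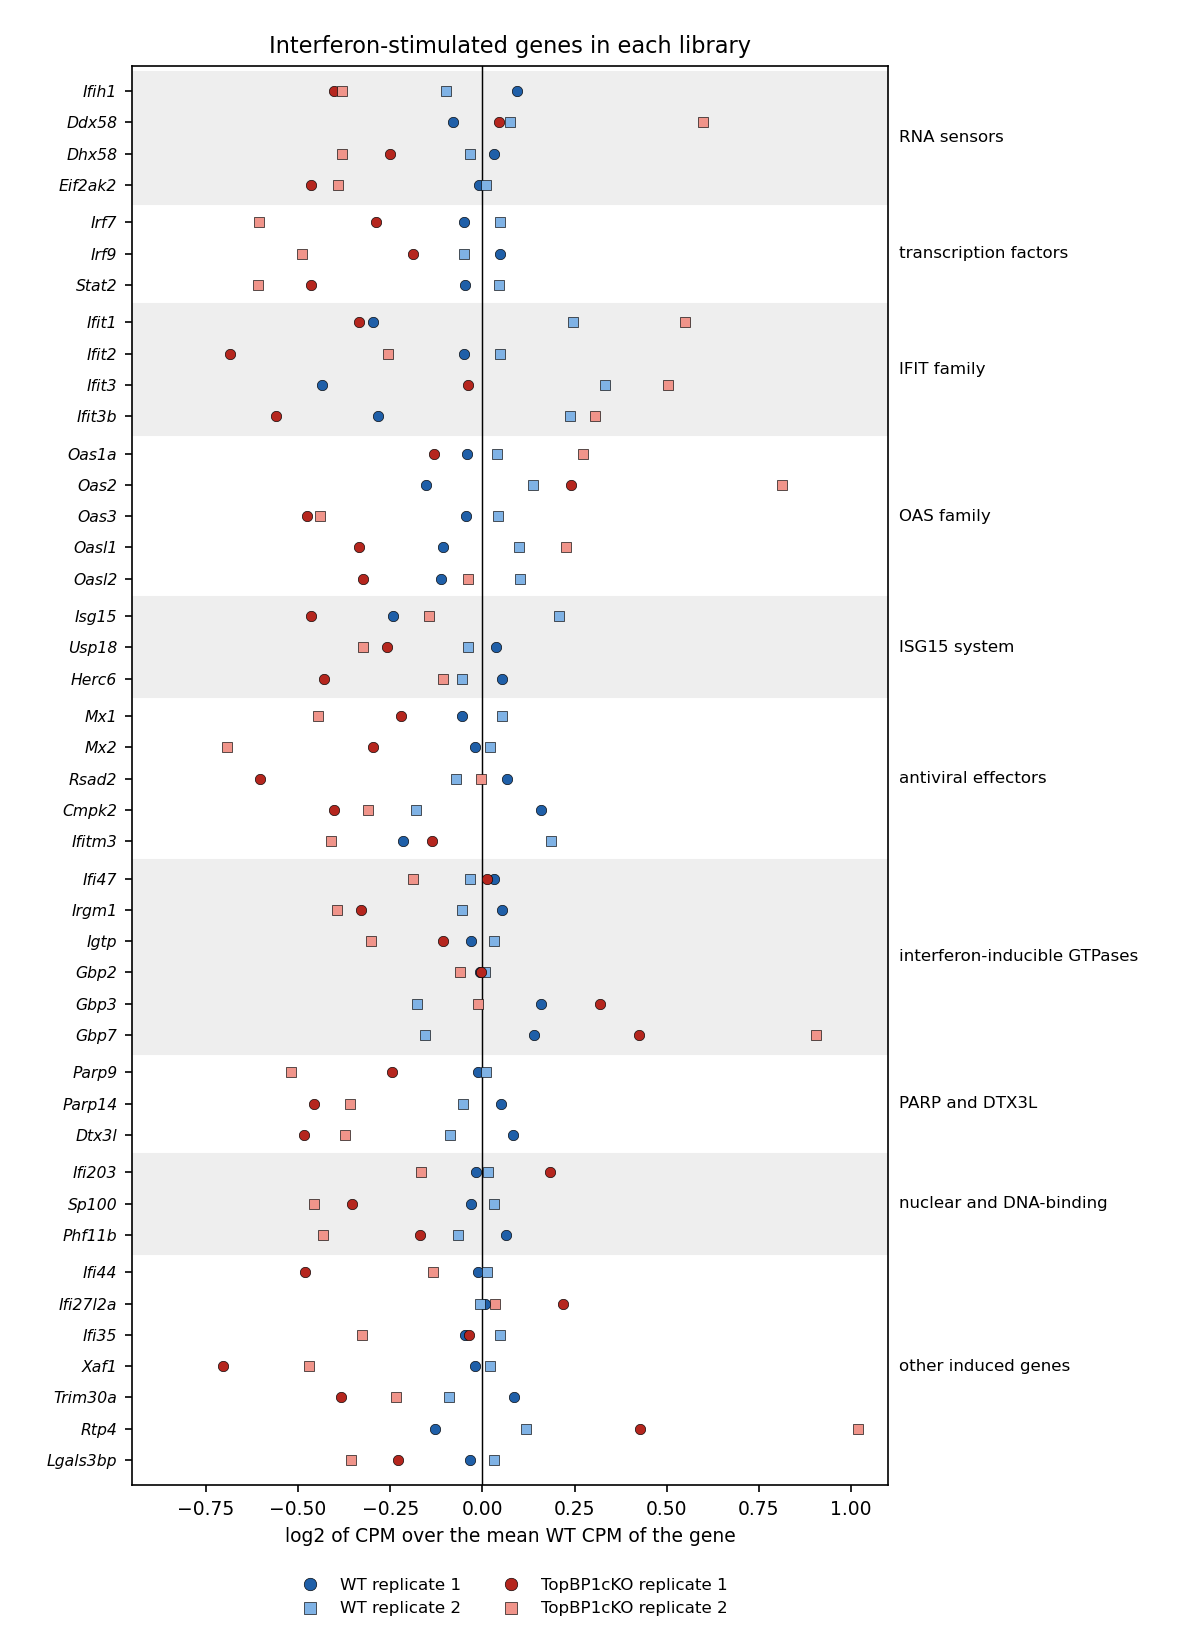
Level of each of the 43 interferon-stimulated genes in each library, as log2 of its CPM over the mean WT CPM of that gene (horizontal axis), with genes grouped by role (vertical axis). Blue points are the WT libraries and red points the libraries labelled TopBP1cKO; for 24 genes both red points lie left of both blue points, and for Oas2, Gbp7, Ifi27l2a and Rtp4 both lie right of them.

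The sequences in front of these genes were read from the RefSeq promoter table (GRCm38.p6, 250 bases before to 50 bases after each start), which held 34 of the 43 genes. An ISRE-like match, GAAANNGAAA on either strand, was present in 20 of the 34 (58.8%), compared with 3.99% of the 27025 genes of the table. A GAS-like match, TTCNNNGAA on either strand, was present in 7 of the 34 (20.6%), compared with 9.55% of the table. These matches say what letters are in the window and not that a factor was bound. The stretches shown are from the 3 genes with a match among the 6 with the smallest P, and from Ifit3 and Ifit3b, which share sequence, with the ISRE-like letters in capitals.
Stat2 (chr10:128270256-128270305, plus strand): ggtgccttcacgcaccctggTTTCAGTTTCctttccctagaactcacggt
Eif2ak2 (chr17:78882525-78882574, minus strand): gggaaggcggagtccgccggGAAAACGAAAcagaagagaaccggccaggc
Oas3 (chr5:120777705-120777754, minus strand): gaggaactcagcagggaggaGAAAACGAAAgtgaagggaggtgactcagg
Ifit3 (chr19:34583353-34583436, plus strand): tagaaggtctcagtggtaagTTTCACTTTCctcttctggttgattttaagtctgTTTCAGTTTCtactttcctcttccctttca
Ifit3b (chr19:34607749-34607832, plus strand): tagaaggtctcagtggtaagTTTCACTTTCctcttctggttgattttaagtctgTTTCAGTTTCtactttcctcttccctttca
The match began at position -222 from the start site in Stat2, -75 in Oas3 and 19 in Eif2ak2, and Eif2ak2 and Oas3 carried the same 10 letters. The stretches of Ifit3 and Ifit3b were identical over their length. Of the remaining 3 among the 6 smallest P, Xaf1 and Dtx3l had no ISRE-like match in their windows, and Parp14 was not in the table. For genes with an ISRE-like match the median log2 fold change was -0.23 and 13 of 20 were below 0, and for genes without one it was -0.31 and 14 of 14 were below 0.

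Among the transcription factors, all 3 genes were lower at an unadjusted P below 0.05, against 3.77% of all genes tested, and none passed the FDR. STAT2 and IRF9 are the interferon-specific subunits of the ISRE-binding complex, and IRF7 is the factor that amplifies type I interferon production. Stat2 was read at 436 and 465 CPM in WT and at 326 and 296 CPM in the libraries labelled TopBP1cKO. The groups did not overlap, and the log2 fold change was -0.53 ± 0.12 (SE), with an FDR of 0.307. Irf7 was read at 433 and 463 CPM in WT and at 367 and 294 CPM in the libraries labelled TopBP1cKO, with a log2 fold change of -0.44 ± 0.14 (SE). Irf9 was read at 249 and 233 CPM in WT and at 211 and 171 CPM in the libraries labelled TopBP1cKO, with a log2 fold change of -0.33 ± 0.14 (SE), or -0.20 without TopBP1cKO replicate 2. For all 3 factors the lowest value was that of TopBP1cKO replicate 2. Both libraries labelled TopBP1cKO lay below both WT libraries for all 3, an ordering that 20.8% of all genes tested had.

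Of the RNA sensors, 3 of 4 were lower at an unadjusted P below 0.05, against 3.77% of all genes tested. For these 3, both libraries labelled TopBP1cKO lay below both WT libraries, an ordering that 20.8% of all genes tested had. Eif2ak2 encodes the double-stranded RNA kinase PKR, which stops translation. It was read at 272 and 276 CPM in WT and at 198 and 208 CPM in the libraries labelled TopBP1cKO, a log2 fold change of -0.43 ± 0.11 (SE). The libraries of a group lay close together and the groups did not overlap. Ifih1, which encodes the long double-stranded RNA sensor MDA5, was at 96.03 and 84.0 CPM in WT and at 68.1 and 69.2 CPM in the libraries labelled TopBP1cKO. Dhx58, whose product LGP2 modulates MDA5 and RIG-I, had a log2 fold change of -0.31 ± 0.12 (SE), also with no overlap. Ddx58, the gene of the RNA sensor RIG-I, ran the other way, at 16.7 and 18.7 CPM in WT and at 18.2 and 26.8 CPM in the libraries labelled TopBP1cKO. Its groups overlapped, and its higher mean came from TopBP1cKO replicate 2: the log2 fold change was 0.35 with all libraries and 0.03 without that library.

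The PARP9, PARP14 and DTX3L proteins act together, PARP9 and DTX3L as a complex of an ADP-ribosyltransferase and a ubiquitin ligase, and their genes lie next to each other on chromosome 16. All 3 were lower at an unadjusted P below 0.05, against 3.77% of all genes tested. Both libraries labelled TopBP1cKO lay below both WT libraries for all 3, an ordering that 20.8% of all genes tested had. Parp14 was read at 265 and 247 CPM in WT and at 187 and 200 CPM in the libraries labelled TopBP1cKO, a log2 fold change of -0.41 ± 0.12 (SE). Dtx3l was read at 323 and 287 CPM in WT and at 218 and 236 CPM in the libraries labelled TopBP1cKO, a log2 fold change of -0.43 ± 0.12 (SE). Parp9 was read at 143 and 145 CPM in WT and at 121 and 100 CPM in the libraries labelled TopBP1cKO, a log2 fold change of -0.38 ± 0.13 (SE). In Parp14 and Dtx3l the lower library was TopBP1cKO replicate 1, and in Parp9 it was replicate 2.

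The IFIT family, whose proteins bind viral RNA and hold back its translation, did not share a direction. Ifit2 was lower, at 92.8 and 99.2 CPM in WT and at 59.8 and 80.5 CPM in the libraries labelled TopBP1cKO (unadjusted P = 0.0232), a log2 fold change of -0.45, or -0.26 without TopBP1cKO replicate 1. Ifit1 was read at 7.28 and 10.6 CPM in WT and at 7.09 and 13.1 CPM in the libraries labelled TopBP1cKO, so the TopBP1cKO libraries enclosed the WT ones. Ifit3 was at 12.9 and 22.0 CPM in WT and at 17.0 and 24.8 CPM in the libraries labelled TopBP1cKO, and Ifit3b at 3.18 and 4.57 CPM against 2.63 and 4.79 CPM. In these 3 genes the 2 libraries of a group differed by more than the group means did. Ifit3 and Ifit3b are uncertain as separate genes, since 61.8% of the 31-base sequences of Ifit3 transcripts also occur in Ifit3b and the rule for reads that match both is not given in the sources used here.

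The OAS family, some of whose members make the 2′-5′ oligoadenylates that activate RNase L, held a gene of either direction at an unadjusted P below 0.05. Among all genes tested, 3.77% were lower and 6.95% higher at that P. Oas3 was read at 70.2 and 74.5 CPM in WT and at 52.1 and 53.4 CPM in the libraries labelled TopBP1cKO, a log2 fold change of -0.46 ± 0.12 (SE) with no overlap. Oas2, its neighbor on chromosome 5, was read at 12.3 and 15.02 CPM in WT and at 16.1 and 23.99 CPM in the libraries labelled TopBP1cKO, a log2 fold change of 0.55 ± 0.23 (SE). The Oas2 groups did not overlap either, but TopBP1cKO replicate 1 lay close to the upper WT library, and without replicate 2 the log2 fold change was 0.23. Oas1a, Oasl1 and Oasl2 had log2 fold changes of 0.08, -0.03 and -0.17 and overlapped between groups. Oas1a is also uncertain, as 68.8% of its 31-base sequences occur elsewhere, nearly all of them in Oas1g.

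All 4 IFIT genes and all 5 OAS genes had replicate 2 above replicate 1 in both groups, an ordering found in 15 of the 43 genes (34.9%) and in 22.0% of all genes tested. For the IFIT family the median log2 ratio of replicate 2 over replicate 1 was 0.53 in WT and 0.70 in the libraries labelled TopBP1cKO. For the transcription factors the medians were 0.09 and -0.30, so the spread between libraries of a group took a different course there. The replicate numbers are not stated to mark a shared litter, day or batch, and the deviations of same-numbered libraries had a correlation of 0.40 over the 43 genes and of -0.05 over all genes tested.

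**Figure D2:**
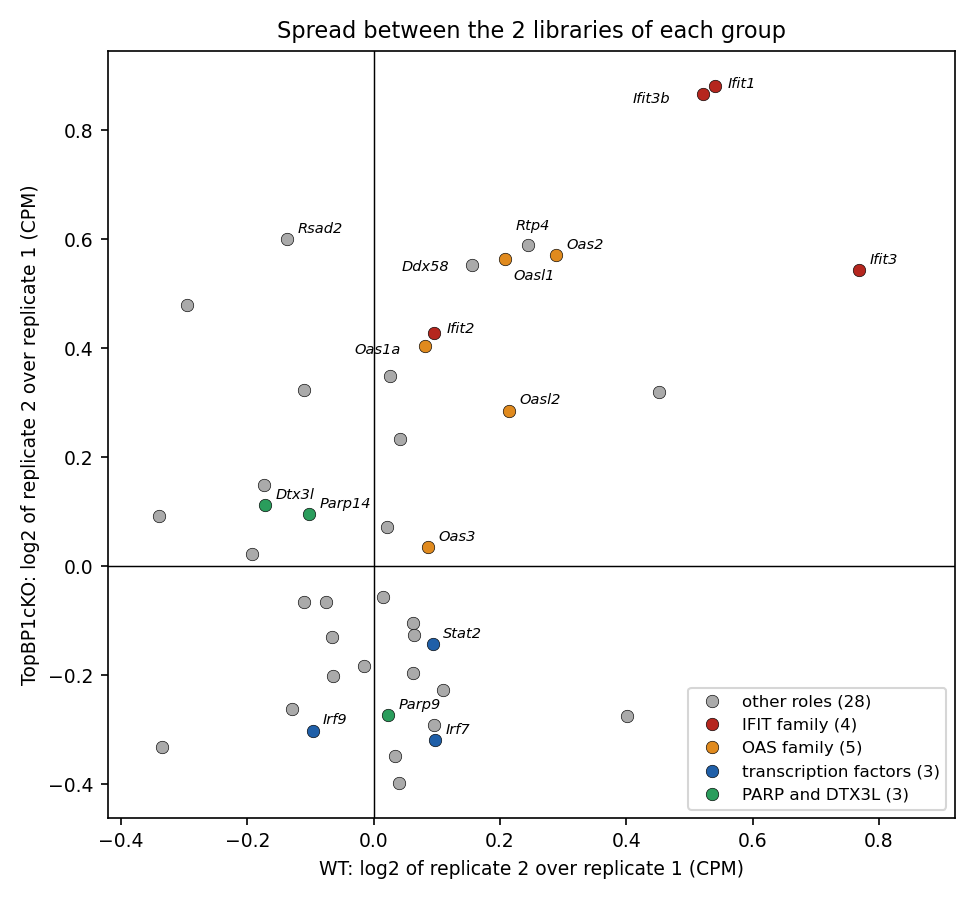
Log2 ratio of replicate 2 over replicate 1, by CPM, in WT (horizontal axis) and in the libraries labelled TopBP1cKO (vertical axis), 1 point per interferon-stimulated gene, colored by role. The 4 IFIT and 5 OAS genes all lie in the upper right part, above 0 on both axes, while the 3 transcription factors lie below the horizontal line.

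The ISG15 system consists of the ubiquitin-like protein ISG15, its protease USP18, which also dampens receptor signaling, and the ligase HERC6. Usp18 was lower at an unadjusted P of 0.0458, at 68.0 and 64.5 CPM in WT and at 55.3 and 52.9 CPM in the libraries labelled TopBP1cKO. Isg15 was read at 37.9 and 51.8 CPM in WT and at 32.5 and 40.5 CPM in the libraries labelled TopBP1cKO. The Isg15 groups overlapped, and its log2 fold change was -0.30 ± 0.19 (SE). Herc6, at -0.26 ± 0.15 (SE), did not overlap between groups, although TopBP1cKO replicate 2 lay just under WT.

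All 5 antiviral effectors had log2 fold changes below 0, and Mx1 and Mx2 were lower at an unadjusted P below 0.05. Among all genes tested, 48.8% were below 0 and 3.77% were lower at that P. The Mx genes encode dynamin-like GTPases that block viral nucleocapsids. Mx1 was read at 156 and 168 CPM in WT and at 139 and 119 CPM in the libraries labelled TopBP1cKO, and Mx2 at 31.2 and 32.0 CPM against 25.7 and 19.5 CPM. Neither overlapped, and TopBP1cKO replicate 2 was the lowest library for both. The log2 fold change of Mx2 was -0.48 with all libraries and -0.30 without that library. Rsad2 encodes viperin, which makes a chain-terminating nucleotide from CTP, and its neighbor Cmpk2 on chromosome 12 encodes the kinase that supplies the CTP. The log2 fold changes were -0.27 ± 0.21 (SE) for Rsad2, whose groups overlapped, and -0.35 ± 0.18 (SE) for Cmpk2, whose groups did not. Both rested on single libraries, with -0.0031 for Rsad2 without TopBP1cKO replicate 1 and -0.18 for Cmpk2 without WT replicate 1. Ifitm3, which keeps viruses from fusing with endosomal membranes, was at 149 and 197 CPM in WT and at 157 and 130 CPM in the libraries labelled TopBP1cKO, an overlap between groups.

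The interferon-inducible GTPases act on the membranes of vacuoles that hold pathogens and are known for their response to interferon-γ. Irgm1 was lower at an unadjusted P of 0.0146, at 176 and 163 CPM in WT and at 135 and 129 CPM in the libraries labelled TopBP1cKO. Gbp7 was higher at an unadjusted P of 0.0398, at 5.44 and 4.43 CPM in WT and at 6.63 and 9.25 CPM in the libraries labelled TopBP1cKO, with a log2 fold change of 0.69 ± 0.28 (SE), or 0.42 without TopBP1cKO replicate 2. Neither of these genes overlapped between groups, but Gbp7 rests on 67 to 143 counts per library. Of all genes tested, 3.77% were lower and 6.95% higher at an unadjusted P below 0.05. Both libraries labelled TopBP1cKO lay below both WT libraries for 20.8% of all genes tested and above them for 22.8%. Ifi47, Igtp, Gbp2 and Gbp3 had log2 fold changes of -0.09, -0.20, -0.03 and 0.16, and of these Igtp alone did not overlap.

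Among the nuclear proteins, Sp100, a component of PML nuclear bodies, was read at 677 and 707 CPM in WT and at 542 and 504 CPM in the libraries labelled TopBP1cKO. It did not overlap between groups and had a log2 fold change of -0.40 ± 0.13 (SE, unadjusted P = 0.0133). Phf11b had a log2 fold change of -0.29 ± 0.13 (SE, unadjusted P = 0.0602), and 62.9% of its 31-base sequences occur in other genes, mainly Phf11a. Ifi203, of the DNA-binding PYHIN family, had a log2 fold change of 0.02, with TopBP1cKO replicate 1 above and replicate 2 below both WT libraries.

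The remaining 7 induced genes included the lowest and the highest fold change of the set. Xaf1, whose product binds the apoptosis inhibitor XIAP, was read at 58.3 and 60.0 CPM in WT and at 36.3 and 42.7 CPM in the libraries labelled TopBP1cKO. The groups were well apart, with a log2 fold change of -0.58 ± 0.14 (SE, unadjusted P = 0.00312, FDR 0.307), a difference of -33.2% relative to WT. Rtp4, which encodes a receptor-transporting protein, was at 5.58 and 6.62 CPM in WT and at 8.21 and 12.4 CPM in the libraries labelled TopBP1cKO, with a log2 fold change of 0.75 ± 0.27 (SE, unadjusted P = 0.026). Its groups did not overlap, but TopBP1cKO replicate 2 was far above replicate 1, and without it the log2 fold change was 0.42. Lgals3bp, a secreted glycoprotein gene, was lower at an unadjusted P of 0.0377, while Trim30a, Ifi44 and Ifi35 had log2 fold changes of -0.31, -0.30 and -0.17 with an unadjusted P above 0.05. Ifi27l2a, at 0.13 ± 0.13 (SE), had both libraries labelled TopBP1cKO above WT, replicate 2 by less than 2 CPM.

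The direction of the difference went with abundance. Of the 20 genes with a mean of over 1000 counts, 19 were below 0, with a median log2 fold change of -0.35 and Ifi203 as the exception. Of the 16 genes with 250 to 1000 counts, 11 were below 0, with a median of -0.23, and of the 7 genes with fewer counts, 3 were below 0, with a median of 0.16. All genes tested went the same way to a lesser extent, with medians of -0.05, 0.01 and 0.08 and with 61.3%, 48.2% and 41.8% below 0. Per kilobase of transcript, Sp100 and Ifitm3 had the highest WT levels of the set, at 256 and 255 CPM per kb, followed by Irf7 at 200.2 CPM per kb, and Gbp7 had the lowest, at 0.879 CPM per kb. The WT levels of Sp100 and Ifitm3 did not differ from each other beyond the spread of the WT libraries. That spread was 250.1 to 261 CPM per kb for Sp100 and 219.7 to 290 CPM per kb for Ifitm3.

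**Figure D3:**
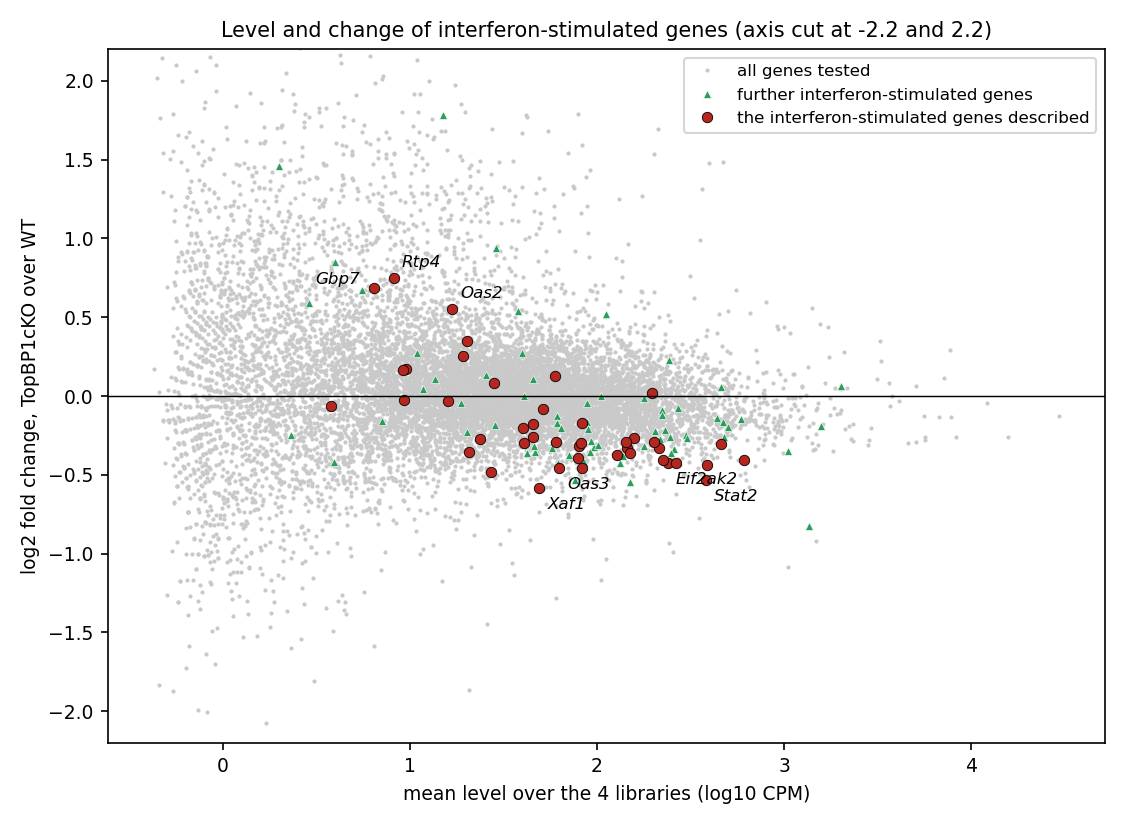
Log2 fold change of TopBP1cKO over WT (vertical axis) against the mean level over the 4 libraries (horizontal axis, log10 CPM) for all 12393 genes tested (gray), the further interferon-stimulated genes (green triangles) and the 43 genes described (red). The red points above 0.5 are Oas2, Gbp7 and Rtp4, all at low levels, and 19 of the 20 red genes with over 1000 counts lie below 0, down to -0.53 for Stat2; genes beyond the limits of the vertical axis are not drawn.

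The tables list RefSeq transcripts, and 142 transcripts belong to the 43 genes, of which 123 had counts. Of the 43 genes, 13 had a single transcript, among them Stat2, Isg15 and Dtx3l. A switch, taken as at least 20 counts in both libraries of a group and 0 in both of the other, was seen for 3 of the 123 transcripts (2.44%), 1 each of Gbp3 and Oasl1 with counts in the libraries labelled TopBP1cKO only and 1 of Parp14 with counts in WT only. Among all transcripts with counts, 1.77% did the same. The Parp14 transcript held 87 and 158 counts in WT, where the whole gene held 3756 and 3738. Mx1 and Mx2 were listed only under non-coding RefSeq records.

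Upstream of these genes, the ligands were almost absent. Of 21 interferon genes, Ifng alone had counts, with 1 and 0 in WT and 3 and 8 in the libraries labelled TopBP1cKO, and none passed the filter on low counts. The type I receptor genes Ifnar1 and Ifnar2 had log2 fold changes of -0.02 and -0.01. Ifngr1, the ligand-binding chain of the interferon-γ receptor, was read at 758 and 718 CPM in WT and at 563 and 457 CPM in the libraries labelled TopBP1cKO, a log2 fold change of -0.53 ± 0.15 (SE, unadjusted P = 0.00696) with no overlap. It was the only receptor gene of 6 at an unadjusted P below 0.05, where 3.77% of all genes tested were lower.

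Of the other interferon regulatory factors, Irf1 and Irf2, an activator and a repressor at related promoter elements, were lower at an unadjusted P below 0.05, with log2 fold changes of -0.38 ± 0.13 and -0.32 ± 0.11 (SE). The receptor kinase genes Jak1, Jak2 and Tyk2 had log2 fold changes of -0.11, -0.16 and -0.19, each with an unadjusted P above 0.05. Irf8, the factor that directs cDC1 development, was at 2442 and 2514 CPM in WT and at 2456 and 1933 CPM in the libraries labelled TopBP1cKO, an overlap between groups. The median log2 fold changes of 5 negative regulators and of 12 sensing adaptors and kinases were -0.07 and -0.02. The numbers at an unadjusted P below 0.05 were 0 and 1 (Tlr7, higher, on 33 to 140 counts per library). Among all genes tested, 6.95% were higher and 3.77% lower at that P.

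A further 74 interferon-stimulated genes, listed apart from the 43, included 71 that were tested. Of these, 53 were below 0 and 18 above, with a median log2 fold change of -0.20, and 21 were lower and 4 higher at an unadjusted P below 0.05, against the same 3.77% and 6.95% of all genes tested. None passed the FDR of 0.05 in edgeR's quasi-likelihood test, and limma-voom called 0. DESeq2 called 3, against 1.25% of all genes, and the likelihood ratio test 4, against 1.89%. Without TopBP1cKO replicate 1 the number was 25, against 20.5% of all genes, and without TopBP1cKO replicate 2 it was 8, against 1.74%. Slfn5, a Schlafen family gene, was read at 1736 and 1735 CPM in WT and at 1175 and 784 CPM in the libraries labelled TopBP1cKO, a log2 fold change of -0.83 ± 0.20 (SE). Slfn4 of the same family, known from myeloid cells, ran the other way, at 5.02 and 8.53 CPM in WT and at 14.9 and 31.9 CPM in the libraries labelled TopBP1cKO. The groups of both genes lay apart, with TopBP1cKO replicate 2 farther from WT in each.

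Markers of some other cell types moved with the groups. Among all genes tested, 6.95% were higher and 3.77% lower at an unadjusted P below 0.05, and 0.105% were at an FDR below 0.05. All 12 neutrophil markers were higher in the libraries labelled TopBP1cKO, each at an unadjusted P below 0.05. Of these, 5 were at an FDR below 0.05, and none was at 0 in any library. Their summed level was 756 to 803 CPM in WT and 2214 to 2237 CPM in the libraries labelled TopBP1cKO. All 20 cell cycle genes were higher as well, mainly in TopBP1cKO replicate 2. The cDC2 markers were all above 0 in log2 fold change (sums of 65.4 to 82.5 CPM in WT and 107 to 132 CPM in the libraries labelled TopBP1cKO). Of 6 cDC1 markers, 5 were below 0 (1893 to 2050 CPM and 1705 to 1740 CPM), with Cadm1 alone (-0.51) lower at an unadjusted P below 0.05. The remaining cDC1 marker, Itgae, was higher at an unadjusted P below 0.05, with a log2 fold change of 0.71. Plasmacytoid dendritic cells are the best known source of type I interferon. The sums of their markers were 173 to 182 CPM in WT and 178 to 179 CPM in the libraries labelled TopBP1cKO. Of the 8 markers tested, 5 were above 0 in log2 fold change and 3 below. At an unadjusted P below 0.05, 3 were higher: Cox6a2 (6.69), Spib (0.81) and Runx2 (0.395). Tcf4, the most abundant of these markers in every library, was lower at that P (-0.33). Cox6a2 had 0 and 3 counts in WT and 183 and 168 in the libraries labelled TopBP1cKO, and the cause was not tested. The other markers tested were Siglech (0.07), Pacsin1 (-0.02), Ccr9 (-0.29) and Ly6d (1.14), each at an unadjusted P above 0.05. Cox6a2 alone was at an FDR below 0.05, and Klk1 was at 0 or 1 count in every library. Of 8 monocyte markers, 7 were above 0 in log2 fold change and 2 of them (Csf1r and Cx3cr1, at 0.59 and 0.60) were higher at an unadjusted P below 0.05, with sums of 592 to 616 CPM in WT and 549 to 712 CPM in the libraries labelled TopBP1cKO. Of 8 B cell markers, 7 were above 0 and none was at an unadjusted P below 0.05 (sums of 70.3 to 76.3 CPM and 88.4 to 88.9 CPM). For 6 of them both libraries labelled TopBP1cKO lay above WT, an ordering that 22.8% of all genes tested had. All 7 T and NK cell markers tested were above 0, and 2 of them (Cd3g and Ncr1) were higher at an unadjusted P below 0.05. Their sums were 19.7 to 20.1 CPM in WT, 38.7 CPM in TopBP1cKO replicate 1 and 21.5 CPM in TopBP1cKO replicate 2. Erythroid markers summed to 7.15 to 7.49 CPM and 9.96 to 10.8 CPM, and macrophage markers to 18.2 to 19.0 CPM and 15.2 to 16.04 CPM. Of 5 macrophage markers tested, C1qb alone (-2.00, on 3 to 23 counts per library) was at an unadjusted P below 0.05. The part of these shifts in the levels of the interferon-stimulated genes was not tested.

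**Figure D4:**
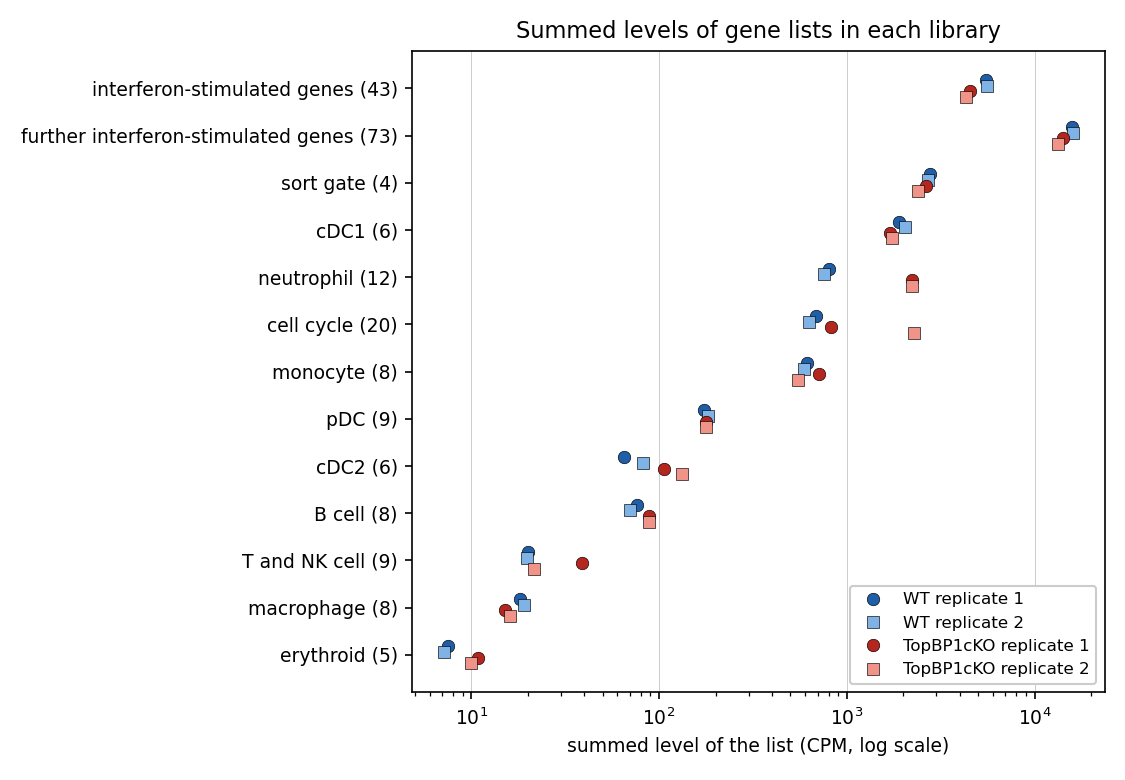
Summed level of each gene list in each library (horizontal axis, CPM on a log scale; number of genes in brackets), with blue points for WT and red points for the libraries labelled TopBP1cKO. The 43 interferon-stimulated genes sum to 5549 and 5579 CPM in WT and to 4511 and 4326 CPM in the libraries labelled TopBP1cKO, while the neutrophil markers sum to 756 to 803 CPM and 2214 to 2237 CPM.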

How the data were processed

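The authors deposited 1 table of whole-number counts per RefSeq transcript for each of the 4 libraries. The RNA libraries were made with the CORALL kit. The submitters' processing notes name fastp, STAR, Salmon, GATK and the GRCm39 build, with no versions or roles, and the treatment of molecular identifiers and of reads that match several genes is not given in the sources used here. Counts were summed per gene symbol, 12393 of 19815 symbols with a count passed edgeR's filterByExpr, and TMM-scaled counts were compared between WT and TopBP1cKO by edgeR's quasi-likelihood test (edgeR 4.0.16, R 4.3.3) and P values were adjusted by the Benjamini-Hochberg method over the genes tested. The common dispersion was 0.023. Scripts were tested on simulated data. DESeq2 1.42.0, limma 3.58.1, other normalizations and filters, a replicate block, single transcripts and leaving out each library served as alternatives. The 43 genes and the other lists were chosen with earlier results of these data known, so they were given no set test; any listed gene could be named, and 1 is not reported here. Transcript lengths and shared 31-base sequences came from GENCODE M21 and promoters and gene order from RefSeq, both of GRCm38 and matched by symbol only, since the counts rest on GRCm39. No genome of GRCm39 was used here.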

Additional observations from a re-analysis of the deposited data

How the results depend on the processing

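The signs of 35 of the 43 genes held under every alternative that gave a fold change per gene; single transcripts gave counts of calls only. Another normalization, filter or test left 33 of 43 below 0. The number called at an FDR of 0.05 was 1 with DESeq2, 2 with edgeR's likelihood ratio test and 1 (Xaf1, FDR 0.0447) with a replicate block, against 1.25%, 1.89% and 4.07% of all genes, and for the further interferon-stimulated genes it was 3, 4 and 4. The labels do not say that a replicate number marks a pair, and the deviations of same-numbered libraries had a correlation of -0.05 over all genes tested and of 0.40 over the 43 genes, so the unpaired fit was kept. When each library was left out in turn, the lone library left in a group being assumed to vary like the others, 0 to 22 of the 43 genes and 0 to 25 of the further genes were called, and 3 to 29 of the 43 genes had an unadjusted P below 0.05. The lowest number at that P came without WT replicate 1, and the upper limits of all these counts came without TopBP1cKO replicate 1. The shares of all genes called, and of all genes lower or higher at that P, are given above for each run. They were also highest without TopBP1cKO replicate 1, so the rise in that run was not limited to the interferon-stimulated genes. Genes with every remaining TopBP1cKO library above every remaining WT library then numbered 5 to 10, and genes with the opposite ordering 28 to 33. Fewer libraries meet these orderings more easily, and their shares over all genes were not computed for these runs. The median log2 fold change ran from -0.31 to -0.28. The sign turned for 8 genes in these runs, with log2 fold changes from -0.34 to 0.54 for Ifit1, -0.078 to 0.68 for Ifit3, -0.57 to 0.30 for Ifit3b, -0.14 to 0.27 for Oas1a, -0.34 to 0.22 for Oasl1, -0.19 to 0.0035 for Ifi47, -0.012 to 0.34 for Gbp3 and -0.17 to 0.17 for Ifi203. In all, 27 of the 43 genes turned or shrank by over 1.5 times when a library was left out, 6 of them (Irf9, Ifit2, Oas2, Mx2, Gbp7 and Rtp4) among those with an unadjusted P below 0.05. The cause was not tested.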
